A study of Mus musculus with 10 samples.

Results

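Histone genes encode the proteins that package DNA. A nucleosome wraps DNA around a core of the histones H2A, H2B, H3 and H4, and the linker histone H1 binds where the DNA enters and leaves that core. Most of these proteins come from replication-dependent genes that lie in clusters, are transcribed during DNA synthesis, lack introns and give mRNAs that end in a stem-loop instead of a poly(A) tail. Replacement variants such as H2A.Z, H2A.X and H3.3 come from scattered genes, most of which have introns and polyadenylated mRNAs, and are supplied through the whole cell cycle. Both capture methods used here prime on poly(A), so a histone mRNA without a tail is poorly recorded.

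The members were all gene symbols in the count tables that begin with Hist1h to Hist4h, H2af or H3f3. There were 87 such symbols among 44288 in the series, and 81 had at least 1 UMI (unique molecular identifier, a counted molecule) in the barcodes kept as cells. The other 6 had none. Each was listed in only 2 or 3 of the 10 tables, and over the UMIs of those libraries a count of 0 allows a level of up to 0.00305 to 0.00629 UMIs per 10000. Of the members, 70 were Hist cluster genes and 17 were replacement-variant symbols, including the macroH2A genes and 1 antisense transcript. Levels are UMIs of a gene per 10000 UMIs, after the 7 hormone genes Gh, Prl, Pomc, Tshb, Lhb, Fshb and Cga had been taken out of the totals.

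Single-cell RNA-seq was made from whole mouse pituitaries on 2 platforms, 10X Genomics and Drop-seq, in 10 libraries. The paper names CD1 as its mouse strain and gives no strain for the transgenic mice. The 10X Genomics libraries came from wild type (WT) mice aged 8 weeks, 1 library from females and 1 from males. The 8 Drop-seq libraries were 2 from WT females and 2 from WT males at 8 weeks, 1 from females at 8 weeks that carried the mt/hGRF transgene (mt/hGhrh in the study, human growth hormone releasing hormone under a metallothionein promoter), 1 from a WT virgin female at 13 weeks and 2 from WT lactating females at 13 weeks. Several libraries pooled the pituitaries of more than 1 mouse, the virgin and transgenic groups had 1 library each, and p-values here measure the spread between libraries, which may be technical.

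Between 978 and 5256 barcodes per library were kept, 23432 in all, with 960289 to 5080590 UMIs per library and a median of 534 to 1246 UMIs per barcode. Libraries shared at most 6 kept barcode sequences, those of the 10X Genomics pair. A group of 1104 barcodes carried more than 100 UMIs of ribosomal protein pseudogenes per 10000 and held a large part of the histone UMIs. In the 10X Genomics libraries these were 262 of 3493 barcodes with 76.2% of all histone UMIs against 48.9% of all non-hormone UMIs, and in Drop-seq they were 842 of 19939 barcodes with 10.8% against 5.88%. Counts of members called, and values that moved most, are also given without them. No doublet caller was run.

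The promoters of 4 genes are shown because they represent the gene groups described below: an H2A gene that shares its promoter with Hist1h2bc, an H2B gene of the chromosome 3 cluster, a linker histone gene and the variant gene H2afv. The sequences are RefSeq's 250 bases upstream of the transcription start on GRCm38.p6, read 5′ to 3′ on the gene's strand, with ATTTGCAT (the octamer bound by Oct factors), CCAAT and TATAAA in capitals on either strand. They lie at chr13:23683960-23684209 on the minus strand (Hist1h2ac), chr3:96269450-96269699 on the plus strand (Hist2h2bb), chr13:21780626-21780875 on the minus strand (Hist1h1b) and chr11:6444444-6444693 on the minus strand (H2afv).
Hist1h2ac: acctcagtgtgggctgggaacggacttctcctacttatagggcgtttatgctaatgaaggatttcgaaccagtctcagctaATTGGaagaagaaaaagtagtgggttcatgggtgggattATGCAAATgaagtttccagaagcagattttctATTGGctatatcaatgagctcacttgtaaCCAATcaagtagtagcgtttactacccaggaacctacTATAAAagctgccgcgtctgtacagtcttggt
Hist2h2bb: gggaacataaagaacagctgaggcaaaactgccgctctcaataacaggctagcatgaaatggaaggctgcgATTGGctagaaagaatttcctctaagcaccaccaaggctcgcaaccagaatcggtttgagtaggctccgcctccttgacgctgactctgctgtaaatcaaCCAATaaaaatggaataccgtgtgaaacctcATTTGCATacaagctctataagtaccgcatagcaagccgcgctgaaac
Hist1h1b: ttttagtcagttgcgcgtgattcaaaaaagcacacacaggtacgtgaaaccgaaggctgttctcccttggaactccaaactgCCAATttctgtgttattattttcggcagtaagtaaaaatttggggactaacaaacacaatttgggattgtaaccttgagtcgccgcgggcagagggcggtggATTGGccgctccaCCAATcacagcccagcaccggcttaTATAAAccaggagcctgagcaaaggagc
H2afv: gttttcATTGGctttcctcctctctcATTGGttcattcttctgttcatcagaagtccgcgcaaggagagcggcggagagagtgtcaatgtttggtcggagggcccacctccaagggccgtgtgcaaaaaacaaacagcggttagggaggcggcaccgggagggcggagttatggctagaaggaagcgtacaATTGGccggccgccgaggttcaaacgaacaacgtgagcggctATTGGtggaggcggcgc

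The octamer began 130 bases before the start of Hist1h2ac and 48 bases before that of Hist2h2bb. Of the 71 members with a RefSeq promoter, 14 (19.7%) held the octamer, against 435 of 27025 (1.61%) of all promoters. It stood in 7 of 17 H2A and 6 of 16 H2B promoters of the Hist clusters, in 0 of 10 H3, 0 of 12 H4 and 0 of 6 linker promoters, and in 1 of 10 variant promoters. These promoters are not all separate stretches of DNA. In 12 pairs an H2A and an H2B gene start within 500 bases of each other, so 1 octamer can be counted for both. CCAAT, a shorter and common motif, was in 80.3% of the members' promoters and 34.5% of all promoters, and in every H2A, H2B and linker promoter but only 3 of 12 H4 promoters. TATAAA was in 42.3% against 13.0%. These are letter matches and no binding was measured.

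Most Hist genes lay in clusters on chromosomes 13 (55 genes, 7782 UMIs), 3 (10 genes, 4426 UMIs) and 11 (3 genes, 913 UMIs). Hist1h2al (1306 UMIs) lay apart on chromosome 13, at chr13:51202727-51203065, and 1 gene (73 UMIs) on chromosome 6. Their 14500 UMIs were spread unevenly over the core and linker types, with 4288 for H2B, 4172 for H4, 2940 for linker H1, 2778 for H2A and 322 for H3. The H2A sum includes the 1306 UMIs of Hist1h2al, which is annotated as a processed pseudogene. The 8 highest Hist genes held 10835 UMIs and the other 62 held 3665. The median of the longest annotated transcript was 1358 bases for the 8 highest and 526 bases for the others. Of the 70 genes, 40 had fewer than 50 UMIs each and 438 together.

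**Figure D1:**
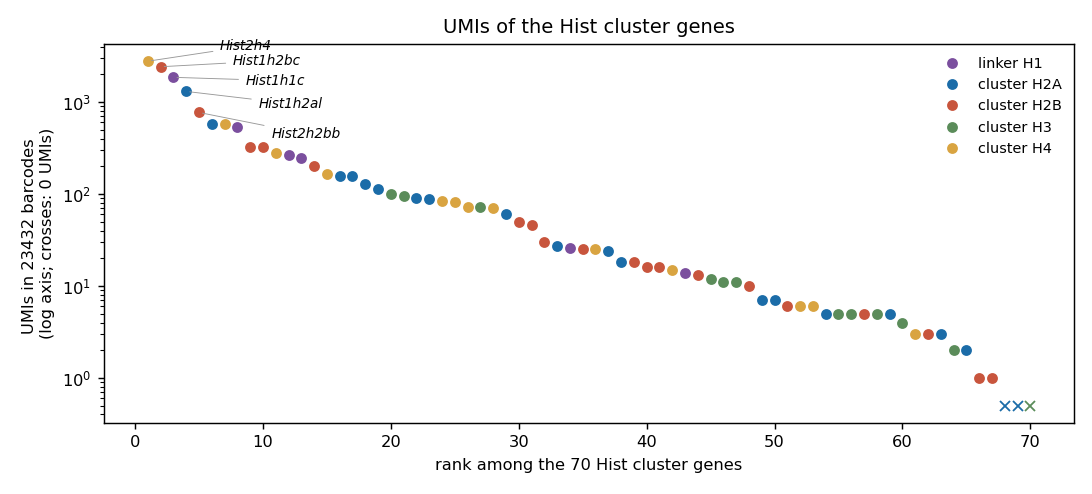
UMIs of each of the 70 Hist cluster genes over all kept barcodes (y, log axis) by rank (x), coloured by histone type, with crosses for the 3 genes without a UMI. A few genes, led by Hist2h4 with 2784 and Hist1h2bc with 2423 UMIs, stand far above the rest.

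Neighbouring genes could differ as well. In 12 pairs, an H2A and an H2B gene faced away from each other with starts within 500 bases. The counts differed by more than 10-fold in 2 of these pairs, and in 1 once the pseudogene-rich barcodes had been left out, a setting chosen after seeing the data. The starts of Hist1h2ac and Hist1h2bc were 251 bases apart, yet Hist1h2ac had 24 UMIs and Hist1h2bc had 2423, or 12 and 2377 without those barcodes. Hist1h2bc, an H2B gene at chr13:23684199-23692908, is annotated in GENCODE vM21 with 2 exons and a transcript of 1156 bases. In the second pair past 10-fold, Hist1h2an had 127 UMIs and Hist1h2bp 10, which became 20 and 8. Hist2h2ac (156 UMIs) and Hist2h2be (203 UMIs) were closer together, but stood at 46 and 197 without those barcodes.

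Assignment of reads within the family was uncertain. An exact stretch of 50 bases was shared with another gene by 66 of the 70 Hist genes, and 65 of the 70 were single-exon genes. Hist1h2bc shared such a stretch with 100 other genes, and Hist1h2al, which GENCODE annotates as a processed pseudogene, with 21. H3f3a shared one with 132 genes, of which 52 had symbols that begin with Gm or contain -ps, as many pseudogenes do. Hist2h4 shared one with 1 other gene, and H2afv, H2afy and Hist1h1b with 0.

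Across all kept barcodes the levels were led by the variants. H3f3b, which encodes H3.3, stood at 7.03 and 7.39 in the 10X Genomics libraries and at 1.39 to 4.80 in the Drop-seq libraries. H2afy, which encodes macroH2A1, stood at 1.03 and 1.22 in 10X Genomics and at 1.28 to 2.41 in Drop-seq, and the platforms overlapped after the pseudogene-rich barcodes had been left out (1.56 and 1.68 against 1.28 to 2.27). H2afz, the H2A.Z gene, stood at 11.4 and 22.6 in 10X Genomics and at 0.120 to 0.289 in Drop-seq, with no overlap.

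Much of this difference in level lay in the barcodes rich in ribosomal pseudogenes, which held 93.4% of the 10X Genomics UMIs of H2afz and 84.2% of those of H3f3a, the second H3.3 gene. Without them H2afz stood at 2.11 and 2.55 in 10X Genomics and at 0.0945 to 0.215 in Drop-seq, still far apart as a ratio, and H3f3a at 3.69 and 3.70. The reference behind the 10X Genomics counts is not given, and platform and reference cannot be told apart. By contrast, 1.88% of the 10X Genomics UMIs of Hist2h4 and 2.67% of those of Hist1h2bc were in these barcodes.

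**Figure D2:**
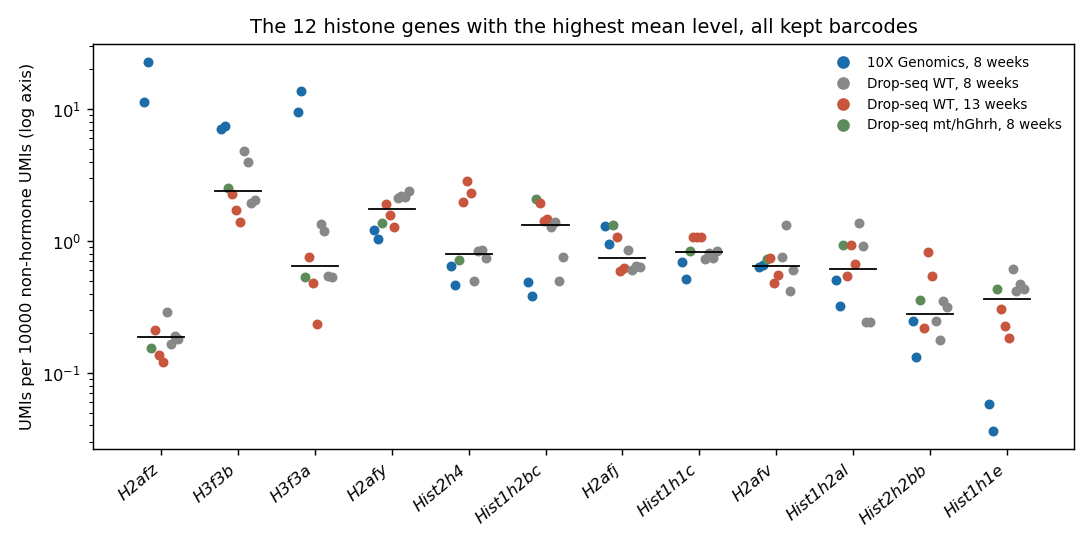
Levels of the 12 histone genes with the highest mean level in all kept barcodes (y, UMIs per 10000 non-hormone UMIs, log axis), 1 point per library coloured by group, with the median as a line. The 10X Genomics points of H2afz (11.4 and 22.6) stand far above the Drop-seq points (0.120 to 0.289), and those of H2afy, Hist2h4 and Hist1h2bc lie within or near the Drop-seq range.

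Among the Hist genes, Hist2h4, an H4 gene, and Hist1h2bc had nearly the same mean level over the 10 libraries (1.19 and 1.17), and in Drop-seq Hist1h2bc was slightly the higher (1.36 against 1.35). Hist2h4 ranged from 0.465 to 2.83, with the 3 libraries from 13-week mice (1.98, 2.83 and 2.29) above all the others (at most 0.856). Hist1h2bc ranged from 0.383 to 2.07, lowest in the 10X Genomics male and highest in the mt/hGhrh library. Without the pseudogene-rich barcodes Hist1h2bc stood at 0.743 and 0.918 in 10X Genomics and at 0.622 to 2.09 in Drop-seq. The 10X Genomics libraries were then no longer the lowest. Hist2h4 stood there at 0.966 and 1.14 in 10X Genomics and at 0.597 to 2.88 in Drop-seq. Hist1h1c, a linker histone gene, lay between 0.512 and 1.08 with a median of 0.826. Hist1h1e, another linker gene, ranged from 0.0363 to 0.619.

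To ask which histone genes marked cycling cells, 793 dividing barcodes with at least 1 UMI of Mki67 or Top2a, genes of proliferating and mitotic cells, were compared with 6742 non-dividing barcodes that carried markers of a hormone cell class. The dividing barcodes were of any class or none, supporting and immune cells included. Division and cell class therefore cannot be told apart in this comparison. UMIs were summed per library and tested with library as a block (edgeR quasi-likelihood, Benjamini-Hochberg over all genes). Of the members, 9 passed the count filter, and 4 were higher and 0 lower in dividing cells. Over all 4945 genes tested, 17.0% were higher and 17.7% lower. Without the count filter H3f3b (0.95, adjusted p = 0.093) and H2afj (0.85, adjusted p = 0.121), 2 of the 4, were not called. Against all non-dividing barcodes of any class, 6 of 16 members were higher and 0 lower, H2afv and H3f3b among the higher. Of all genes in that fit, 9.67% were higher and 9.5% lower.

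H2afv, an H2A.Z gene, gave the clearest difference. Its level in dividing cells ranged from 0.823 to 3.40 with a median of 1.89, and in non-dividing hormone cells from 0.243 to 0.585 with a median of 0.457. All 10 libraries were higher in the dividing cells and the ranges did not overlap. The log2 fold change was 2.62 ± 0.24 (SE, adjusted p = 5.42e-07), and H2afv was also called by DESeq2, without TMM scaling, without the count filter and with each library left out.

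The H3.3 genes followed. H3f3b stood at 1.95 to 8.94 (median 3.65) against 1.37 to 4.41 (median 1.96), higher in 10 of 10 libraries with overlapping ranges, a log2 fold change of 1.38 ± 0.35 (adjusted p = 0.00764). H3f3a stood at 0.431 to 20.5 (median 0.945) against 0.113 to 3.17 (median 0.433), again higher in 10 of 10, with 2.16 ± 0.48 (adjusted p = 0.0044). H2afj, which encodes the H2A variant H2A.J, had a log2 fold change of 1.28 ± 0.31 (adjusted p = 0.00658), and was not called against all non-dividing barcodes in place of hormone cells (0.87, adjusted p = 0.0551). It ranged from 0.391 to 1.99 against 0.345 to 1.07.

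Of the 793 dividing barcodes, 228 were rich in ribosomal pseudogenes, and the median UMIs of dividing barcodes per library ran from 772 to 20241 against 606 to 1215 in the non-dividing hormone cells. With the pseudogene-rich barcodes left out, 8 libraries kept enough cells, and H2afv passed the filter only through the dividing cells, where it is high (0 of 8 non-dividing sums reached the cut of 0.607 per 10000). It is therefore given there with no test, at 0.934 to 3.56 in dividing and at most 0.597 in non-dividing cells. Of the other 7 tested members 2 were higher, against 6.29% of all genes. H3f3b had a log2 fold change of 0.90, H2afj fell below the threshold with 0.47 (adjusted p = 0.353), and H3f3a was no longer tested. When lactating 2 was left out as well, H3f3a was tested and not called.

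Hist1h2bc was also called in that comparison, at 0.96 ± 0.27 (adjusted p = 0.0176), although its level was higher in dividing cells in only 3 of 8 libraries. With all barcodes it had not been called (log2 fold change −0.31, adjusted p = 0.602), and it was lower in dividing cells in 8 of 10 libraries. The dividing cells of the mt/hGhrh library stood at 9.16, from 129 UMIs in 29 of 141 barcodes with up to 31 UMIs in 1 barcode, while the other libraries ranged from 0 to 2.83. Leaving out the mt/hGhrh library as well, or lactating 2, both chosen after seeing the data, ended the call (0.33, adjusted p = 0.581, and 0.83, adjusted p = 0.124), in fits where 3.46% and 3.87% of all genes were higher. The direction for Hist1h2bc turned with the barcodes kept, and 1 library held most of its UMIs in dividing cells.

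H2afx, which encodes the H2A.X variant that is phosphorylated at DNA breaks, was below the count filter with all barcodes. After the pseudogene-rich barcodes had been left out it stood at 0.584 to 2.67 (median 1.76) in dividing cells and at 0.0703 to 0.274 (median 0.185) in non-dividing hormone cells, higher in 8 of 8 libraries without overlap. It is given with no test, since it could pass the filter only through the dividing cells.

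Most replication-dependent linker and core genes were below the count filter, and 4 Hist genes, Hist1h1c, Hist2h4, Hist1h2bc and Hist1h2al, were among the 9 members tested. Without the count filter, 75 members were tested, of which 19 were higher and 2 lower (7.98% and 7.33% of all genes). The largest were Hist1h1d with 139 UMIs in dividing against 3 in non-dividing hormone cells, Hist1h1b with 114 against 19, Hist1h2an with 49 against 2, Hist1h4b with 40 against 4 and Hist1h4c with 52 against 9. After the pseudogene-rich barcodes had been left out the counts were 2 against 2 for Hist1h1d, 18 against 17 for Hist1h1b, 10 against 2 for Hist1h2an, 0 against 2 for Hist1h4b and 1 against 4 for Hist1h4c. Most of the UMIs of these 5 cluster genes in dividing cells therefore came from those barcodes.

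Hist1h1e differed from these. It had 92 UMIs in dividing and 112 in non-dividing hormone cells, at levels of 0.0437 to 1.99 (median 0.828) against 0.0274 to 0.751 (median 0.242), higher in 9 of 10 libraries. Without the pseudogene-rich barcodes it had 47 against 97 UMIs and was higher in 8 of 8, with levels of 0.117 to 2.11 against 0.0527 to 0.717. The ranges overlapped in both cases.

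**Figure D3:**
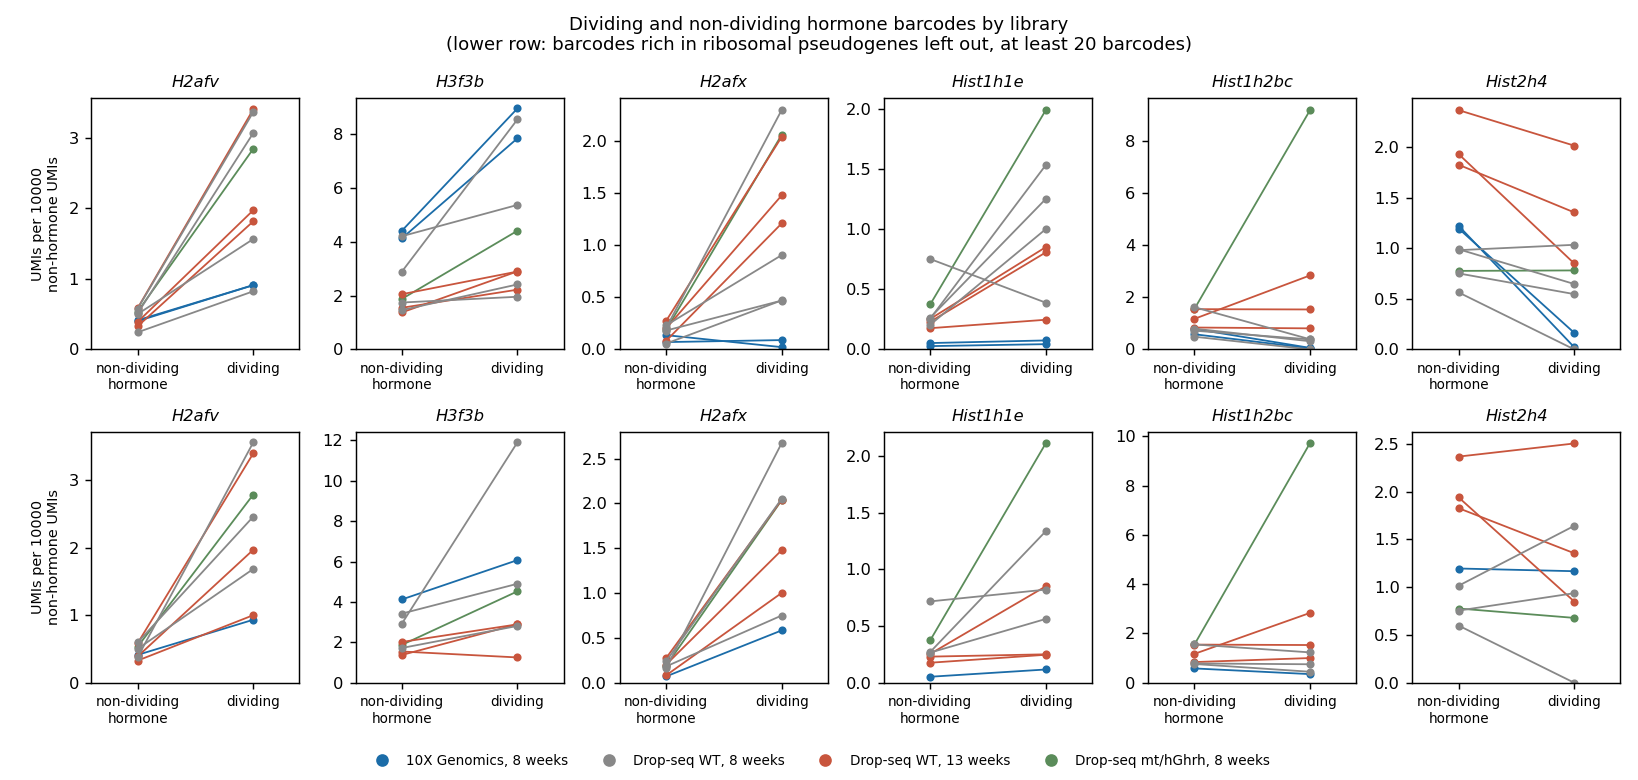
Levels of 6 histone genes (y, UMIs per 10000 non-hormone UMIs) in non-dividing hormone and dividing barcodes (x), with a line per library; the lower row leaves out the barcodes rich in ribosomal pseudogenes. The lines of H2afv rise in all libraries in both rows, those of H2afx in 8 of 8 in the lower row, and Hist1h2bc has a single high line, mt/hGhrh, at 9.16 in the upper row.

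Hist2h4 was not called in either direction. It stood at 0 to 2.02 (median 0.714) in dividing and at 0.564 to 2.37 (median 1.09) in non-dividing hormone cells, lower in 8 of 10 libraries, with a log2 fold change of −0.64 (adjusted p = 0.144). Pseudogene-rich barcodes held 1337527 of 1372862 non-hormone UMIs of dividing cells in the 10X Genomics male and 584428 of 670097 in the female. They held 1.88% of the 10X Genomics UMIs of Hist2h4. In the fit without these barcodes no member was called lower, where 3.5% of all genes were. The part of these barcodes in the levels of Hist2h4 was not tested. Hist1h1c (0.76, adjusted p = 0.109), H2afy and Hist1h2al were not called either. The TMM scaling left the median of all genes at a log2 fold change of −0.13, and without it, a setting chosen after seeing the data, that median was −0.48 and H2afv stood at 2.26.

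Some genes that act on histones were also higher in dividing cells. Of a list of 27 genes for histone mRNA processing, chaperones and other histones, 14 were tested, and 8 were higher and 0 lower, where 17.0% and 17.7% of all genes were. The 8 were 7 of 11 tested chaperones and 1 other histone, and 0 of 2 tested genes of histone mRNA processing and transcription were called. They included the H2A.Z chaperone Anp32e (log2 fold change 2.56), the H3 and H4 chaperones Nasp (2.52), Rbbp7 (2.32) and Asf1a (1.35), the centromeric CENP-A chaperone Hjurp (1.80) and the linker histone H1f0 (1.29). Without the pseudogene-rich barcodes 6 of 12 were higher (6.29% of all genes), among them Hjurp (2.73), Nasp (1.79), H1f0 (1.33), Rbbp7 (1.31) and Anp32e (1.12). The 6 then included 1 of 2 tested genes of histone mRNA processing and transcription. Unlike for the members, it was not checked whether these genes passed the count filter only through the dividing cells. The counts of this list therefore cannot be weighed against the shares of all genes.

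Within cycling cells, 128 barcodes led by S phase genes were set against 905 led by G2 and M phase genes. A cycling barcode needed at least 2 UMIs over both gene lists, and the dividing gate was not required. There were 8 libraries with at least 10 barcodes of each, and 3 members passed the filter. None was called by edgeR (0.0881% of all genes) or by DESeq2 (0.705% of all genes). In edgeR 1 had an unadjusted p under 0.05, H3f3b with a log2 fold change of −0.92 (adjusted p = 0.464), where 9.52% of all genes had one. The pseudogene-rich barcodes made up 111 of 117 M-led barcodes in the 10X Genomics male, 62 of 80 in the 10X Genomics female and 87 of 107 in WT female 2. Without them 4 libraries and 2 members were left, 0 members were called or had an unadjusted p under 0.05, and H3f3b stood at −0.29 (adjusted p = 0.995). The cluster genes were at 0 in many of these libraries. Hist1h1b had 12 UMIs and Hist1h4c 28 in all S-led barcodes together, of 246 and 166 in all kept barcodes. In Drop-seq, 141 of the 166 UMIs of Hist1h4c lay in pseudogene-rich barcodes. The M-led counts of these 2 genes are not given here, so a difference between the phases cannot be read from these numbers.

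The share of dividing barcodes ranged from 1.49% (95% Wilson interval 1.10 to 2.03) in lactating 1 to 5.94% (4.84 to 7.26) in WT female 2. The WT 8-week females had 4.40% ± 1.54 and the males 4.33% ± 0.224 (SD, n = 3 each), a difference of 0.072 percentage points (exact two-sided permutation p = 0.9, the smallest possible being 0.1). Within the pairs of a platform or title tag, the female minus male difference was 0.272, −1.71 and 1.65 points.

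The shares depended on the barcodes kept. Without the pseudogene-rich barcodes they ranged from 1.06% (0.66 to 1.68) in the 10X Genomics male to 4.95% (4.2 to 5.82) in mt/hGhrh, and WT female 2 stood at 1.39% (0.868 to 2.21). The females then had 2.46% ± 0.933 and the males 2.15% ± 0.968 (exact two-sided permutation p = 0.5, n = 3 each), and the differences within pairs were 1.84, 0.206 and −1.14 points, so that both Drop-seq pairs changed sign. Thinned to 300 UMIs per barcode, the shares were 1.88% ± 0.862 and 1.52% ± 1.12. Intervals cover counting error only.

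Cell classes were set by marker genes, and a barcode needed 2 marker UMIs and at least 2 times those of the next class. Hormone classes were Som-like (growth hormone cells), Lac-like (prolactin cells), Gona-like, Mel-like and Cort-like, and the others were Sox2-like (stem and supporting cells), MacPh-like (macrophages), endothelial-like and a collagen-marker gate. A gate of T and NK cell markers held at most 29 barcodes per library and was in neither the hormone nor the supporting and immune set. The collagen-marker gate held 1677 barcodes, from 25 to 779 per library, with a hormone share of up to 29.97%, and is called by its rule. Its high counts in some Drop-seq libraries are why results are also given without it.

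Between non-dividing hormone cells and supporting and immune cells, 9 members were tested, of which 1 was higher and 5 were lower in hormone cells, where 25.5% of all genes were higher and 27.8% lower. The variants accounted for the strongest differences. H3f3b stood at 1.37 to 4.41 (median 1.96) in hormone cells and at 1.84 to 13.4 (median 4.71) in the others, H3f3a at 0.113 to 3.17 against 0.363 to 8.84, H2afj at 0.345 to 1.07 against 0.871 to 2.41, and H2afv at 0.243 to 0.585 against 0.391 to 1.70. All 4 were lower in hormone cells in 10 of 10 libraries, with overlapping ranges, and were called under each alternative that was run.

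Their log2 fold changes were −1.73 ± 0.19 for H3f3a, −1.47 ± 0.18 for H2afj, −1.41 ± 0.17 for H3f3b and −1.09 ± 0.19 for H2afv (adjusted p at most 3.19e-05). Hist1h2bc was also lower, at −0.53 ± 0.18 (adjusted p = 0.0162), but lost the call in Drop-seq libraries alone (−0.40, adjusted p = 0.0796; −0.41 and 0.0725 without the pseudogene-rich barcodes), without lactating 1 (−0.42, adjusted p = 0.0706) and without the collagen-marker gate (−0.24, adjusted p = 0.287). It was also not called by DESeq2 (−0.45, adjusted p = 0.0542), without TMM scaling (−0.34, adjusted p = 0.113) or without the count filter (−0.23, adjusted p = 0.654). With the pseudogene-rich barcodes left out of all 10 libraries the counts stayed at 1 higher and 5 lower (23.4% and 26.3% of all genes). Without TMM scaling the split of all genes moved from 1607 higher and 1754 lower to 2262 higher and 1410 lower.

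Hist2h4 was the member that was higher in hormone cells. With the collagen-marker gate included, it stood at 0.564 to 2.37 against 0.0655 to 2.63, a log2 fold change of 0.75 ± 0.28 (adjusted p = 0.0284), and was not called in the Drop-seq libraries alone (0.34, adjusted p = 0.196), without the 10X Genomics female (0.56, adjusted p = 0.0581) or without WT male 2 (0.71, adjusted p = 0.0539). With that gate left out, a setting chosen after seeing the data, 822 UMIs in hormone cells faced 24 in the others. Its levels of 0.564 to 2.37 then did not overlap with 0 to 0.308. It is given there with no test, since it passed the filter only through the hormone cells (0 of 10 other sums reached the cut of 0.472 per 10000). Of the other 8 tested members 1 was higher, Hist1h1c (0.48, adjusted p = 0.0387), and 4 were lower, where 38.2% of all genes were higher and 37.0% lower.

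Hist2h2bb, an H2B gene of the same chromosome 3 cluster whose promoter is printed above, followed the same pattern but stayed below the count filter. It had 221 UMIs in hormone cells at 0.116 to 0.608, and 5 UMIs in the supporting and immune cells without the collagen-marker gate at 0 to 0.0827. The ranges did not overlap in the 10 libraries. A count of 0 there allowed up to 0.305 in WT female 1 and 0.464 in WT female 2, so for single libraries a level like that of hormone cells was not always detectable at this depth. In the collagen-marker gate Hist2h2bb had 99 UMIs.

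Among 7 classes with at least 20 barcodes in 3 or more libraries, 10 of 12 tested members differed (edgeR F-test over classes), where 81.4% of all genes did, and without the pseudogene-rich barcodes 9 of 10 did (83.4% of all genes). Dividing barcodes were not taken out of the classes. For this test it was not checked whether a member passed the count filter only through the classes where it is high. The counts of members therefore cannot be weighed against the shares of all genes, and the p-values of such members are not independent of the filter. Hist2h4 had the smallest adjusted p (2.49e-17), before H2afj (1.15e-13), H3f3b (2.14e-11), H3f3a (2.69e-08) and H2afv (2.87e-08). Also called were H2afz (3.1e-06), H2afy2 (2.88e-05), Hist1h2bc (0.000233), Hist1h1c (0.00441) and Hist1h2al (0.0206). H2afz had its highest median in MacPh-like cells at 0.577, with 0.223 in Som-like cells. H2afy2 had a median of 0.340 in Sox2-like cells and of 0 in MacPh-like cells, which held 4 UMIs. Hist1h1e (0.156) and H2afy (0.261) were not called by edgeR, but DESeq2 called all 12 members (79.6% of all genes), with adjusted p of 0.0433 and 0.0137 for these. Hist1h1c lost the call without the collagen-marker gate (adjusted p = 0.0764), and Hist1h2al without virgin (0.0717), lactating 1 (0.0556) or WT male 2 (0.0598) and with a gate of 3 marker UMIs (0.112).

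Hist2h4 was highest in Lac-like cells, at 0.285 to 4.80 with a median of 1.36, where the libraries from 13-week mice stood at 4.23, 4.80 and 2.74. Som-like cells followed at 0.454 to 2.09 (median 1.01) and Mel-like cells at 0.176 to 1.49 (median 0.454). MacPh-like cells had 16 UMIs at 0 to 0.342 and Sox2-like cells 16 UMIs at 0 to 0.496. The Lac-like and Som-like ranges overlapped, and both medians lay above the highest MacPh-like and Sox2-like value.

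The collagen-marker gate did not resemble the other supporting classes for Hist2h4. It stood at 2.68, 4.40 and 3.35 in the 13-week libraries, near their Lac-like cells, and at 0 to 1.12 elsewhere. Barcodes below the limit of 300 UMIs, which may be shallow cells or free RNA, held Hist2h4 at 3.71 in the virgin and 1.66 in lactating 1, and their part in the level of this gate was not tested.

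H3f3b was highest in MacPh-like cells at 3.05 to 13.7 (median 6.28) and in Sox2-like cells at 1.14 to 13.7 (median 5.01), against medians of 2.0 among Som-like, 1.87 among Lac-like and 2.22 among Mel-like barcodes. H2afj stood at 1.29 to 3.42 (median 1.85) in MacPh-like cells and at medians of 0.506 among Mel-like, 0.54 among Som-like and 0.622 among Lac-like barcodes. A single Gona-like value for H2afj, 10.8 in the 10X Genomics female, was outside the test. It came from a class with 16 barcodes, 2 of them rich in ribosomal pseudogenes. Class levels include such barcodes, which in the 10X Genomics male were 10 of 29 Sox2-like, 12 of 36 Gona-like and 11 of 182 Lac-like barcodes. Hist1h2bc was led by Sox2-like cells at 0.329 to 3.39 (median 1.82), with MacPh-like cells lowest of the 3 non-hormone gates at 0 to 0.922 (median 0.563).

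**Figure D4:**
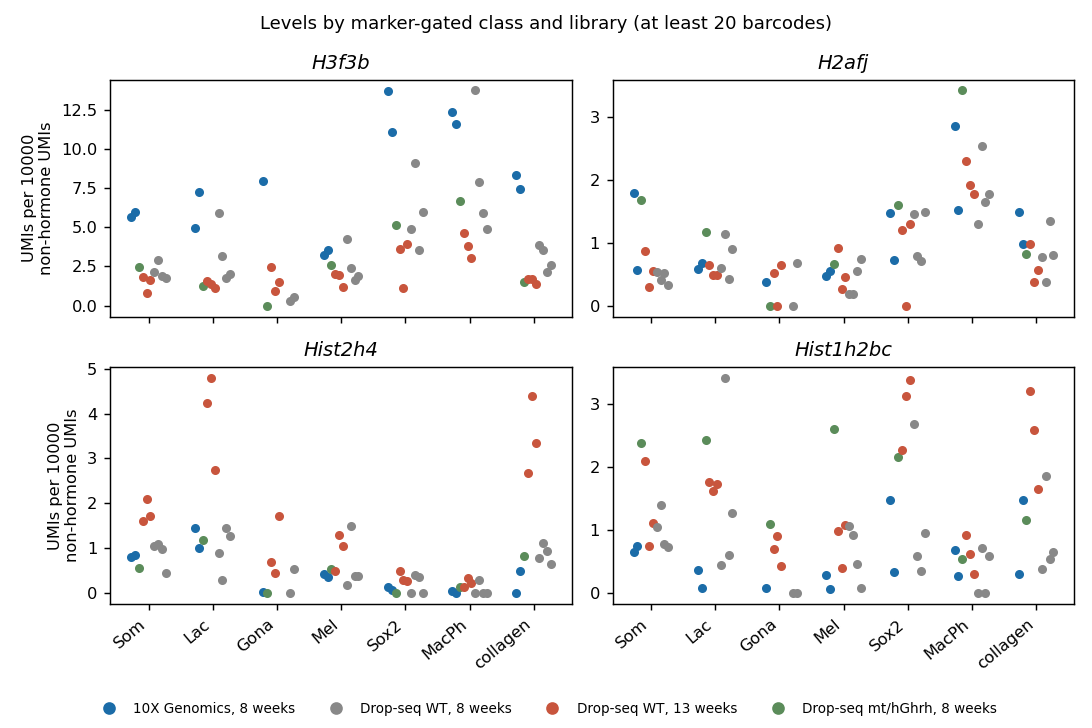
Levels of 4 histone genes (y, UMIs per 10000 non-hormone UMIs) by marker-gated class (x), 1 point per library with at least 20 barcodes. H3f3b and H2afj are highest in MacPh-like cells, and Hist2h4 is near 0 in Sox2-like and MacPh-like cells (at most 0.496) and reaches 4.80 in Lac-like cells.

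The tenth of barcodes with the highest hormone share in each library, 2331 in all, was compared with the other 17508 outside the supporting, immune and T and NK cell gates. Barcodes of those gates were not removed from the hormone-rich side, and the part of this in the differences was not tested. Hormone genes gave 43.1% to 66.1% of their UMIs against 6.44% to 23.6%. Of 16 members tested, 8 were higher and 2 lower in the hormone-rich barcodes, where 23.7% of all genes were higher and 27.4% lower. Without the count filter the balance turned, with 6 higher and 11 lower of 80 members (3.09% and 13.5% of all genes), and H2afj, H3f3b, Hist1h4i and Hist3h2a were not called. The Hist genes held both the largest rise and the largest fall.

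Hist1h2bc stood at 1.56 to 9.01 (median 4.75) in the hormone-rich barcodes and at 0.171 to 1.78 (median 0.986) in the others. It was higher in 10 of 10 libraries, with a small overlap between the lowest hormone-rich value (WT female 2) and the highest other values (mt/hGhrh and virgin). The log2 fold change was 2.52 ± 0.23 (adjusted p = 1.64e-07). Between 10 and 135 hormone-rich barcodes per library carried it, with at most 10 UMIs in 1 barcode.

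Hist2h4 went the other way. In the hormone-rich barcodes it had 58 UMIs at 0 to 0.647 (median 0.269), and in the others 2350 UMIs at 0.516 to 3.27 (median 0.986), lower in 10 of 10 libraries. Its log2 fold change was −2.13 ± 0.27 (adjusted p = 3.77e-06). In WT female 1 and WT male 1 no UMI was found, which allows up to 0.934 and 1.21 there, above the level of the other barcodes (0.63 and 1.07).

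Hist2h2bb fell with it, from 0.139 to 0.908 (median 0.322) in the other barcodes to 0 to 0.238 (median 0.0742), lower in 9 of 10 libraries, with a log2 fold change of −1.84 ± 0.36 (adjusted p = 0.000279). It passed the count filter mostly through the other barcodes (9 of 10 sums against 1 of 10). Without the pseudogene-rich barcodes, neither Hist2h4 nor Hist2h2bb overlapped between the groups in the 10 libraries. Hist2h2bb then passed the filter only through the other barcodes (10 of 10 sums against 0 of 10), and of the other 14 tested members 9 were higher and 1 lower, where 30.6% and 34.4% of all genes were.

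Hist1h2al, the annotated pseudogene, rose by 1.98 ± 0.20 on the log2 scale (adjusted p = 3.06e-07), from 0.162 to 1.34 up to 0.71 to 4.36, higher in 10 of 10 libraries. The others called higher were H2afx (1.34 ± 0.29), H2afv (1.30 ± 0.21), the H4 gene Hist1h4i (1.05 ± 0.28), H2afj (0.90 ± 0.26), the H2A gene Hist3h2a (0.70 ± 0.25) and H3f3b (0.56 ± 0.22). Leaving out lactating 2 ended the calls of H2afj, H3f3b and Hist3h2a and took Hist2h2bb below the count filter, which left 6 of 15 members (47.2% of all genes). Hist2h2bb was also below the filter without lactating 1. The call of H2afj was also lost without the mt/hGhrh library, that of Hist3h2a without the 10X Genomics female, the 10X Genomics male or WT male 2, and that of H3f3b without mt/hGhrh, virgin, lactating 1, WT female 1, WT female 2 or WT male 2. Hist3h2a also lost its call in the Drop-seq libraries alone, with or without the pseudogene-rich barcodes. With the hormone genes kept in the fit, H3f3b was not called. H2afj, H3f3b and Hist3h2a were not called by DESeq2, which called 5 members higher and 3 lower (18% and 42.7% of all genes), and Hist1h1c was its additional lower member.

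The split of all genes depended on scaling, with 1636 higher and 1893 lower under TMM, 1891 and 1207 without it and 1245 and 2951 in DESeq2. Hist1h2bc, Hist1h2al, H2afv and H2afx stayed higher and Hist2h4 lower in each. In the 10X Genomics barcodes with at most 100 UMIs, which were not kept, Hist1h2bc stood at 1.51 and 2.15, above the other kept barcodes of these libraries (0.203 and 0.171) and below the hormone-rich ones (3.35 and 3.51). The part of these low-UMI barcodes in the difference was not tested.

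**Figure D5:**
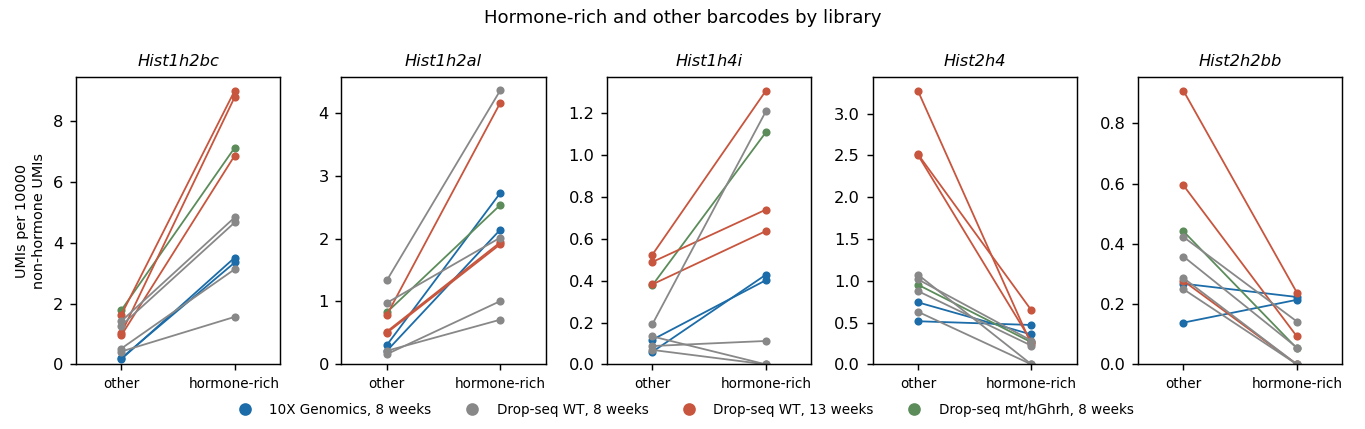
Levels of 5 Hist genes (y, UMIs per 10000 non-hormone UMIs) in the other and the hormone-rich barcodes (x), with a line per library. Hist1h2bc and Hist1h2al are higher in hormone-rich barcodes in 10 of 10 libraries, and Hist2h4 is lower in 10 of 10.

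The study groups were compared on sums over all barcodes of the hormone classes, dividing ones included. For sex, 3 female and 3 male WT libraries at 8 weeks were fitted with platform as a term, and 0 of 19 members were called by edgeR, where 0.0799% of all genes were, and 0 by DESeq2. One member had an unadjusted p under 0.05, H2afy2, a macroH2A2 gene, with a male minus female log2 difference of −1.20 (adjusted p = 0.999), where 3.51% of all genes had one. For lactation, 2 lactating libraries against 1 virgin gave 0 of 26 members in edgeR (0.0162% of all genes) and in DESeq2. At an unadjusted p under 0.05 there were 2, Hist2h2bb at 1.74 and Hist1h2ad, an H2A gene, at −2.25, where 2.56% of all genes had one.

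For the transgene, 1 mt/hGhrh library against 2 WT females gave 0 of 26 called by edgeR (0.0649% of all genes) or DESeq2. An unadjusted p under 0.05 was found for 9 members, all higher in the mt/hGhrh library, led by Hist1h2be (3.18), Hist1h4i (2.58) and Hist3h2ba (2.54), where 8.31% of all genes had one. That count was 4 of 24 members without WT female 2 (6.77% of all genes) and 12 of 26 without WT female 1 (9.94%). Hist1h2bc stood at 1.95 ± 0.48 (adjusted p = 0.271) in these sums, which included dividing barcodes. In non-dividing hormone cells its level over the 5 Drop-seq libraries at 8 weeks, mt/hGhrh among them, was 0.486 to 1.62. The part of the dividing barcodes in the difference was not tested. For sex, lactation and the transgene, 0 members were called without the pseudogene-rich barcodes. The single virgin and transgenic libraries took their spread from the other groups, and library and condition cannot be told apart.

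Age was not tested, since the 3 libraries at 13 weeks were all female and 2 of them lactating, while the 5 at 8 weeks included 2 male and 1 mt/hGhrh library. The labels give no sequencing run for the libraries at 13 weeks. Age, sex, lactation, transgene and any run cannot be told apart. In non-dividing hormone cells of the Drop-seq libraries, Hist2h4 stood at 1.83 to 2.37 in the 3 libraries at 13 weeks and at 0.564 to 0.991 in the 5 at 8 weeks. Of 21 members with at least 30 UMIs, Hist2h4 and Hist1h2ad (0.0756 to 0.449 against 0 to 0.0418) were higher without overlap and 0 were lower, where 1.8% of all genes were higher and 6.74% lower.

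In non-dividing Lac-like cells the same held for Hist2h4 at 2.81 to 4.74 against 0.333 to 1.46. Hist1h4i was also higher without overlap, at 0.557 to 0.924 against 0 to 0.357. H3f3a was lower without overlap, at 0.0770 to 0.399 against 0.454 to 1.00. These were 2 higher and 1 lower of 14 members, where 2.18% of all genes were higher and 4.78% lower. Without the pseudogene-rich barcodes 2 members were higher and 0 lower of 21 in hormone cells (1.79% and 6.72% of all genes), and 2 higher and 1 lower of 14 in Lac-like cells (2.1% and 4.66%).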

How the data were processed

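The authors deposited raw counts of UMIs per gene symbol and barcode. Per the authors, Drop-seq reads were aligned to mm10 (STAR 2.5.2a in the submitters' processing notes) and counted when unique and exonic on the annotated strand of Gencode vM13, with UMIs within edit distance 1 merged. Cell Ranger produced the 10X Genomics counts, and its version and reference are not given in the sources used here. Histone genes share sequence and reads mapping to more than 1 place were dropped, which lowers their counts.

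Drop-seq barcodes with at least 300 UMIs and 100 to 4000 genes were kept, those of 10X Genomics with above 200 and below 3000 genes, in each case with a mitochondrial share under 0.1. UMIs were summed per library and cell set, with at least 20 barcodes in each set (10 for cycling phases), and barcodes with 20 or more haemoglobin UMIs were set aside. Sums were tested with edgeR 4.0.16 in R 4.3.3 (TMM, filterByExpr, quasi-likelihood F-test, Benjamini-Hochberg over all genes, adjusted p under 0.05) with library as a block for cell sets, and with DESeq2 1.42.0 as an alternative. Fold changes carry SEs from the F statistic. The edgeR step was tested on simulated data. Levels and exact tests used numpy 2.4.6, scipy 1.17.1 and pandas 2.3.3. Coordinates come from GENCODE vM21 on GRCm38 and promoters from RefSeq.

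Named with values were the 12 members with the highest mean level, Hist1h2bc and Hist2h4, every member past the threshold in a comparison, and in the dividing comparison the histone pathway genes with the 6 largest changes. Cluster genes below the filter, motifs and gene pairs were chosen after their values were seen. The members and lists were chosen with earlier results of these data known. The titles give the 8-week Drop-seq females and males the same 2 tags, and deviations of libraries with the same tag correlated at 0.463 over 6116 genes.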

Additional observations from a re-analysis of the deposited data

Results flagged for a closer look

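Among 22 checks for a library far from the others, of which chance gives about 1 in 20, 1 library stood apart. In the 10X Genomics male the log2 ratio of Hist2h4 between dividing and non-dividing hormone cells was −5.59, while the nearest of the other 9 libraries was at −2.81 and the opposite end at 0.12. The levels behind it were 0.0219 and 1.22 UMIs per 10000. In this library 56 of the 73 dividing barcodes were rich in ribosomal pseudogenes. These held 1337527 of the 1372862 non-hormone UMIs of its dividing cells, and their part in the ratio was not tested.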

How the results depend on the processing

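Some counts of histone members called moved by more than 1.5 times. Without the filter on low counts they were 21 of 75 (dividing cells, 4 otherwise), 1 of 74 (S-led against M-led, 0 otherwise), 22 of 78 (classes, 10 otherwise), 17 of 80 (hormone-rich barcodes, 10 otherwise) and 2 of 66 (mt/hGhrh, 0 otherwise, Hist1h2bc and Hist1h4i), where 15.3%, 0.459%, 31.4%, 16.6% and 0.391% of all genes were called. Without the 5% of barcodes with the most UMIs, 1 of 5 was called in dividing cells (23.1% of all genes), where H2afv was not tested. Leaving out 1 library at a time gave 4 to 6 (dividing), 5 to 7 (hormone against supporting and immune cells), 8 to 10 (classes) and 6 to 10 (hormone-rich), where 21.5% to 34.7%, 49.2% to 59.6%, 78.8% to 83.3% and 46.7% to 53.9% of all genes were called. With the pseudogene-rich barcodes out as well, omitting mt/hGhrh, lactating 2 or lactating 1 gave 2 of 8, 2 of 7 and 3 of 8 for dividing cells (4.74%, 5.4% and 7.75% of all genes), of which H2afv passed the filter only through the dividing cells. The female minus male share of dividing barcodes was −0.0533 with a gate of 2 UMIs and −0.696 to 0.841 with 1 library left out.

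Directions turned for genes that were not called with all barcodes. Hist1h2bc in dividing cells (−0.31) became 0.96 without the pseudogene-rich barcodes, 0.84 without the 5% with the most UMIs, 0.30 in Drop-seq alone and 1.10 in Drop-seq without the pseudogene-rich barcodes, with 1.02, 0.83 and 0.33 when lactating 1, lactating 2 or mt/hGhrh was also omitted, and it was called at 0.96, 1.10 and 1.02. For lactation (−0.24) it became 0.0301 without the top 5% and 0.14 in Lac-like cells, and ranged from −0.666 to 0.0803 with 1 lactating library left out. Hist2h4 in mt/hGhrh (0.02) became −0.00232 in DESeq2, −0.15 without TMM, −0.0943 without the pseudogene-rich barcodes, −0.0303 without the top 5% and −0.71 in Som-like cells, and ranged from −0.12 to 0.23 with 1 WT female left out. For sex (−0.11) it became 0.12 in all barcodes and ranged from −0.23 to 0.0266 with 1 library left out. The causes were not tested.

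A replicate block by title tag for sex called 0 members, as did the fit without it, and moved the calls over all genes from 8 to 25. Depth limits the cluster genes, of which 40 had fewer than 50 UMIs.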
